A study of Sus scrofa with 48 samples.

Results

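The genes of MHC class II antigen presentation were followed in the liver of pigs from lines divergently selected for residual feed intake (RFI). RFI is the part of feed intake not predicted from growth and backfat thickness. The set comprised SLA-DRA, SLA-DRB1, SLA-DQA1, SLA-DQB1, SLA-DMA, SLA-DMB, CD74 and CIITA, 8 genes in all. A probe belonged to the set when its gene name, or the gene to which its accession maps, was a gene of the set. This gave 32 of the 60305 probes on the array, with 7 probes for SLA-DRA, 4 for SLA-DRB1, 9 for SLA-DQA1, 4 for SLA-DQB1, 2 for SLA-DMA, 2 for SLA-DMB and 4 for CD74. CIITA had 0 probes, so 7 of the 8 genes were measured.

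Liver RNA of 48 purebred Large White barrows was measured, with 1 array per pig. Pigs came from the low RFI line (24 pigs) or the high RFI line (24 pigs), separated by 8 generations of selection, and within each line 12 pigs ate a high-fat high-fiber diet (HF) and 12 a low-fat low-fiber diet (LF) from about 11 weeks of age until sampling shortly after a meal at about 19 weeks. Each line was a single population, so that selection and drift cannot be told apart, and relationships between pigs were not given in the sources used here. P-values measure the spread between these pigs.

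Class II molecules are displayed by dendritic cells, macrophages and B cells, and carry peptides cut from swallowed proteins to helper T cells. In pigs the MHC is called SLA. An alpha and a beta chain, encoded by SLA-DRA and SLA-DRB1 or by SLA-DQA1 and SLA-DQB1, form the peptide-binding groove. CD74, the invariant chain, fills the groove of newly made molecules and guides them to endosomes, where SLA-DMA and SLA-DMB together form the editor that exchanges the remnant of CD74 for other peptides. CIITA is the coactivator that switches on the genes of the set. In the liver, Kupffer cells, dendritic cells and B cells are the known main sources, and the DR and DQ genes are among the most variable between individuals. In a piece of liver, fewer cells of a type and less RNA per cell cannot be told apart.

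The variability matters for what a probe can see, so the probes that bear on the results are shown first. Probes are 60 bases long, and are named here by gene and by the base at which they start in their record. Probes SLA-DQA1 277 and SLA-DQA1 310 target the same stretch, which encodes part of the alpha-1 domain of the groove. They are shown because they overlap by 59 bases and yet were designed on different transcript records, with 0 records listed for both. Capitals mark the bases at which they differ.
SLA-DQA1 277: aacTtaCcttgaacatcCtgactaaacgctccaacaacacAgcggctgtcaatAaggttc
SLA-DQA1 310: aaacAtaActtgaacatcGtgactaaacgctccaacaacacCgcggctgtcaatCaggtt
With the base of SLA-DQA1 277 first and positions counted from its 5′ end, the 5 differences were T4A, C7A, C18G, A41C and A54C.

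Probes SLA-DQA1 503 and SLA-DQA1 528 lie in the part encoding the immunoglobulin-like alpha-2 domain. They are shown as a contrast, because their shared 38 bases hold a single difference, A25G, counted from the 5′ end of SLA-DQA1 503 and in capitals below.
SLA-DQA1 503: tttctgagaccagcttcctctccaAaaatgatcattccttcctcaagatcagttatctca
SLA-DQA1 528: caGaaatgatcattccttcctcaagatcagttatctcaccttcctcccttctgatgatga
The SLA-DRB1 probes 608 and 630 are shown as a pair without any difference. Capitals mark the 38 bases that they share.
SLA-DRB1 608: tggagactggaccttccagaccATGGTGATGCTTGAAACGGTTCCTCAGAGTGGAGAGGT
SLA-DRB1 630: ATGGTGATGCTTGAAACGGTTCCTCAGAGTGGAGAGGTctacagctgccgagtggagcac
Near the 3′ end, SLA-DQA1 1068 and SLA-DQA1 1110 overlapped by 56 bases and differed at 3 of them (C20T, A37C and A47C, counted from the 5′ end of SLA-DQA1 1068). Overlapping probes target the same stretch of a gene and are not separate evidence. Genotypes of the pigs were not used here, so for each probe the amount of RNA and how well an allele pairs with the probe cannot be told apart.

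Each of the 32 probes stood well above background on every one of the 48 arrays. Arrays were placed on 6 slides of 8, with 2 pigs of each line and diet group on each slide, and were scanned on 2 days with 6 pigs of each group per day. Between 65.8 and 77.2% of probes were well above background on an array, and 0 spots were saturated. Of the hepatocyte markers, 12 of 14 were measured and had summed levels of 8725 to 13235 times the array median in the low RFI line and 8024 to 12527 in the high RFI line. A probe was called at P under 0.01 with a fold change (FC) over 1.1, and P-BH is P adjusted over 45236 probes by the Benjamini-Hochberg method in limma.

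Few class II probes differed between the lines. Values are log2 intensities relative to the array median, and a log2 FC for line is low RFI minus high RFI. Of the 32 probes, 2 were called, both for SLA-DQA1 and both lower in low RFI pigs, and 0 were called in the other direction. This share of 6.25% stood beside 6.91% of all probes called for line (3.49% lower and 3.42% higher). At a P-BH of 5%, 1 of the 32 probes was called, beside 3.93% of all probes. The median log2 FC over the 32 probes was -0.04, beside 0.01 over all probes. The values of the lines overlapped for all 32, a count that was not made over all probes. For the brightest probe of each gene, 0 of 7 were called. Among markers of other cells, 5 of 42 Kupffer cell probes were called lower and 0 higher (11.9%, median log2 FC -0.13 over the 42). The summed level of 16 Kupffer cell genes nevertheless had a higher median in the low RFI line, 702 against 675 times the array median. Of 38 T and NK cell probes, 5 were called lower and 2 higher (18.4%). The part of these cells in the class II values was not tested.

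**Figure D1:**
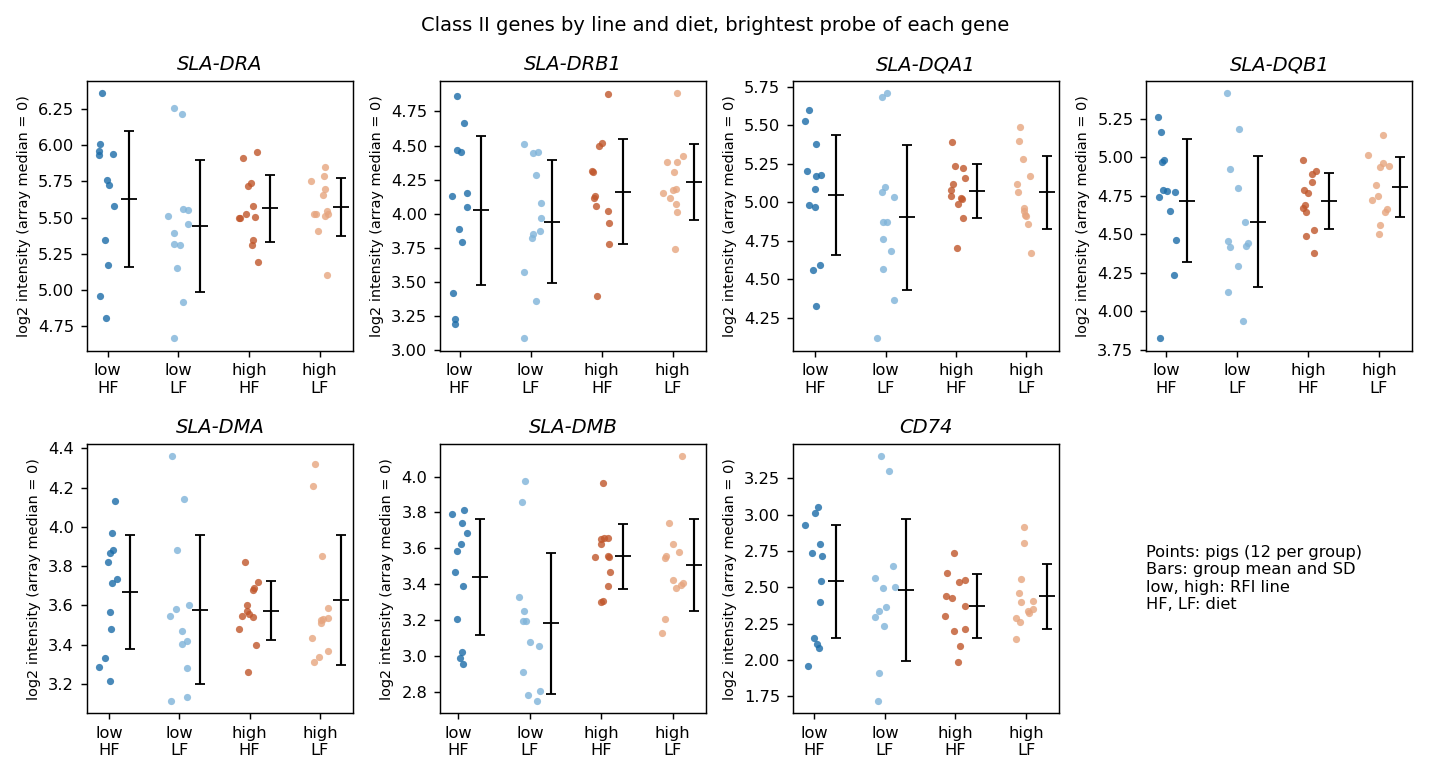
Log2 intensity (array median = 0) of the brightest probe of 7 class II genes in each pig, by line (low or high RFI) and diet (HF or LF), with the mean and SD of each group of 12 pigs as bars. In all 7 panels the groups overlap, and pigs from the low RFI line spread more widely than those from the high RFI line.

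Neither DR chain passed the threshold for line. SLA-DRA, the nearly invariant alpha chain, ranged from 4.67 through a median of 5.53 to 6.36 in the low RFI line (probe 1158). In the high RFI line the same probe ranged from 5.10 through a median of 5.53 to 5.95. The lowest 4 and the highest 5 pigs were all from the low RFI line, and the groups overlapped. The log2 FC was -0.03 (SE 0.10, 95% CI -0.24 to 0.17, P-BH = 0.945), and over the 7 probes log2 FC lay between -0.05 and 0.03. SLA-DRB1, the polymorphic beta chain, ranged from 3.08 through 4.01 to 4.87 in the low RFI line and from 3.39 through 4.16 to 4.88 in the high RFI line (probe 893). The 4 lowest pigs were from the low RFI line and the 2 highest from the high RFI line. This gave a log2 FC of -0.21 (SE 0.12, 95% CI -0.46 to 0.03), and the 4 probes lay between -0.21 and -0.14 with P between 0.0822 and 0.225, so that none passed the threshold.

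The 9 probes of SLA-DQA1, the DQ alpha chain, gave different answers. For the brightest probe, SLA-DQA1 1068, values ran from 4.11 through 5.01 to 5.71 in the low RFI line and from 4.67 through 5.06 to 5.49 in the high RFI line. The line effect was a log2 FC of -0.09 (SE 0.10, 95% CI -0.29 to 0.10). This probe and 5 others lay between -0.12 and 0.10, with P between 0.196 and 0.928.

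Probe SLA-DQA1 1110, which overlaps the brightest probe with 3 differing bases, gave a lower signal in low RFI pigs. Values ranged from 1.33 through a median of 2.43 to 3.12 in the low RFI line, and from 2.42 through 2.84 to 3.37 in the high RFI line. Of the 24 low RFI pigs, 12 were below every high RFI pig, and 2 high RFI pigs were above every low RFI pig. This difference was a log2 FC of -0.40 (SE 0.10, 95% CI -0.61 to -0.19, P-BH = 0.0151), an FC of 1.32. It was -0.42 among the arrays of the first scan day and -0.39 among those of the second, where it lost its call (P-BH = 0.366).

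Probe SLA-DQA1 310 had the widest difference between lines of the 32 probes. Low RFI pigs ranged from -1.10 through a median of 0.50 to 2.34, and high RFI pigs from -0.64 through 1.55 to 2.35. High RFI pigs fell on either side of a gap, with 6 at or below -0.12 and 18 at or above 0.87, whereas low RFI pigs had values within that gap too. The log2 FC was -0.86 (SE 0.30, 95% CI -1.47 to -0.26, P-BH = 0.104), an FC of 1.82, so that it was called at P under 0.01 but not at a P-BH of 5%. It was -0.65 on the first scan day and -1.08 on the second, and was called within neither (P-BH = 0.636 and 0.423).

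Probe SLA-DQA1 277, on the same stretch as SLA-DQA1 310, spread the low RFI pigs widely, and did not pass the threshold for line. In the low RFI line it ranged from -1.65 through 0.60 to 2.70, with 13 pigs at or below 0.72 and 11 at or above 1.56. In the high RFI line it ranged from -0.72 through 0.49 to 1.35. The 4 lowest and the 11 highest of all pigs were from the low RFI line. Between lines the log2 FC was 0.18 (SE 0.32, 95% CI -0.47 to 0.82), and it was 0.55 on the first scan day and -0.19 on the second.

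**Figure D2:**
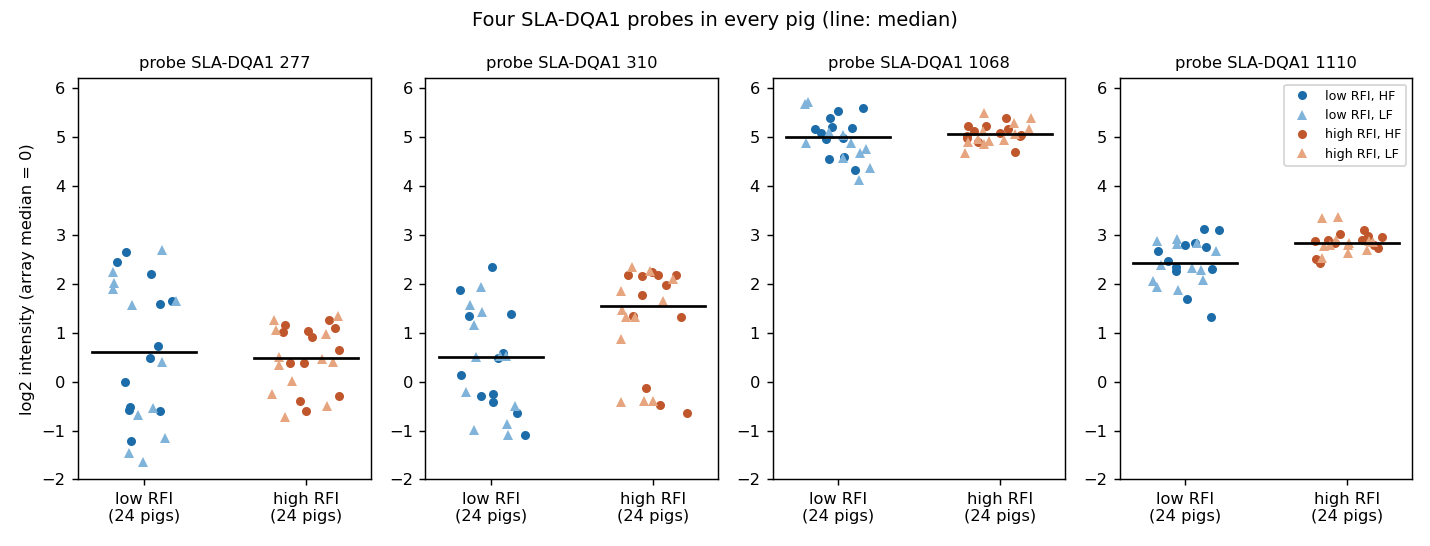
Log2 intensity (array median = 0) of 4 SLA-DQA1 probes in each of 24 pigs per line, with diet as symbol and the median as a line. Low RFI pigs reach from -1.65 to 2.70 with probe 277, high RFI pigs split around a gap from -0.12 to 0.87 with probe 310, all high RFI pigs lie within the range of the low RFI pigs with probe 1068, and 12 low RFI pigs lie under all high RFI pigs with probe 1110.

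SLA-DQB1, the DQ beta chain, did not pass the threshold with any of its 4 probes. The brightest, SLA-DQB1 1061, ran from 3.82 through 4.70 to 5.42 in the low RFI line and from 4.38 through 4.76 to 5.15 in the high RFI line. The 5 lowest and the 4 highest pigs were from the low RFI line. The log2 FC was -0.11 (SE 0.09, 95% CI -0.29 to 0.07), and over the 4 probes it lay between -0.13 and 0.15. Probe SLA-DQB1 13 was fitted on 47 arrays because 1 spot was marked as an outlier.

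Neither chain of the peptide editor passed the threshold, and SLA-DMB came nearest. SLA-DMB, its beta chain, ranged from 2.75 through 3.23 to 3.98 in the low RFI line and from 3.13 through 3.55 to 4.11 in the high RFI line (probe 1224). In all, 9 low RFI pigs were below every high RFI pig. Its log2 FC was -0.22 (SE 0.09, 95% CI -0.39 to -0.05, P = 0.0127, P-BH = 0.162), just outside the threshold, and -0.17 for the other probe. SLA-DMA, the alpha chain, ranged from 3.11 through 3.57 to 4.36 in the low RFI line and from 3.26 through 3.55 to 4.32 in the high RFI line (probe 998). Its log2 FC was 0.02 (SE 0.09, 95% CI -0.15 to 0.20).

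CD74, the invariant chain, ranged from 1.72 through 2.50 to 3.40 in the low RFI line and from 1.99 through 2.38 to 2.92 in the high RFI line (probe 434). The 3 lowest and the 5 highest pigs were from the low RFI line. Its log2 FC was 0.11 (SE 0.10, 95% CI -0.09 to 0.31), the 4 probes lay between 0.02 and 0.11, and none passed the threshold.

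**Figure D3:**
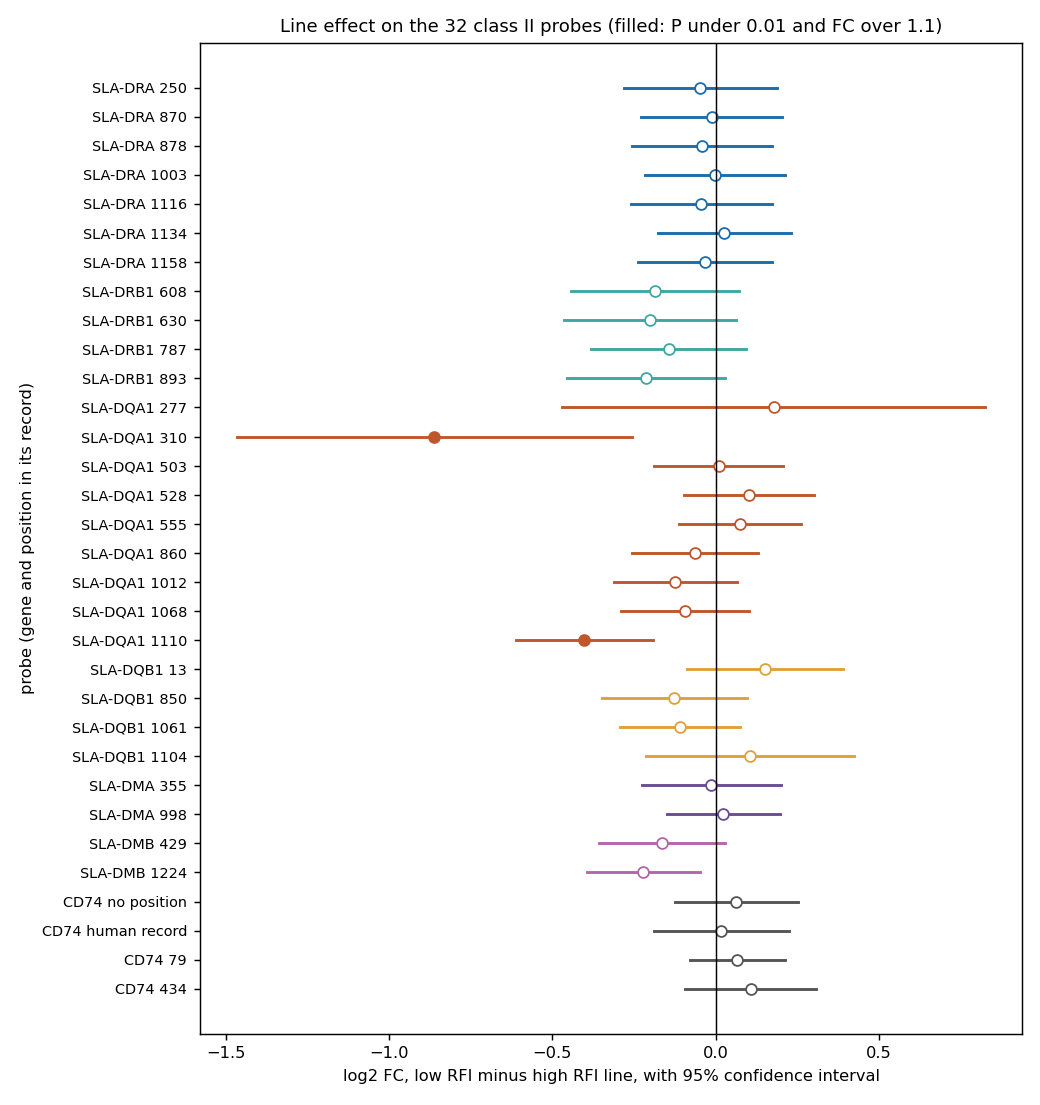
Log2 FC (low minus high RFI line) of each of the 32 class II probes with its 95% confidence interval, in 24 pigs per line. Filled points passed P under 0.01 with FC over 1.1. These are SLA-DQA1 310 at -0.86 and SLA-DQA1 1110 at -0.40, and for 29 of the 32 probes the interval includes 0.

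Diet did not change class II expression past the threshold. With log2 FC as HF minus LF, 0 of 32 probes were called in the limma fit, beside 4.61% of all probes, and 0 had P under 0.05, beside 14.4% of all probes. Across the probes log2 FC lay between -0.02 and 0.15, above 0 for 28 of 32, with a median of 0.04 beside -0.01 over all probes. On the second scan day alone, 4 of the 7 brightest probes turned below 0. SLA-DMB 1224 had the largest value, 0.15 (SE 0.09, 95% CI -0.02 to 0.32, P = 0.0802). Pigs on HF ranged from 2.95 through 3.55 to 3.96 and pigs on LF from 2.75 through 3.36 to 4.11. The 4 lowest and the 2 highest pigs were thus on LF. For SLA-DRA 1158 the log2 FC was 0.09 (SE 0.10, 95% CI -0.12 to 0.29), with pigs on HF between 4.81 and 6.36 and on LF between 4.67 and 6.26.

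Whether the line effect depended on diet was tested with the interaction of line and diet. In limma, 0 of 32 probes were called, beside 0.376% of all probes, and 0 had P under 0.05, beside 2.37% of all probes. The interaction, the diet effect in the low line minus that in the high line, was above 0 for 31 of 32 probes, with a median of 0.15 beside -0.01 over all probes and a largest value of 0.24 (P-BH = 0.9999 for every probe). Probes of the set moved together over pigs, as described below, so these 31 are not separate observations. Within LF, 2 probes were called for line, beside 3.84% of all probes, namely SLA-DQA1 1110 (log2 FC -0.44, P-BH = 0.176) and SLA-DMB 1224 (-0.33, P-BH = 0.255). Several other ways of processing left 1 of these, and either scan day alone left 0. Within HF, 0 were called (3.41% of all probes), with 2 at P under 0.05 (9.13%). Log2 FC for diet within the low RFI line was above 0 for all 32 probes, between 0.05 and 0.26, and 0 were called (2.68% of all probes), with 1 at P under 0.05 (9.91%). Within the high RFI line it lay between -0.11 and 0.17, was above 0 for 9 probes, and 0 were called (1.58% of all probes), with 0 at P under 0.05 (6.63%).

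Class II genes rose and fell together from pig to pig. Correlations were computed over the 48 pigs after removing the mean of each line and diet group, with the brightest probe per gene, and P was taken from permutation tests (2-sided, 100000 resamples, smallest possible P 1e-05). All 21 pairs of genes were correlated, with Pearson's r between 0.593 and 0.908 (median 0.800) and Spearman's rho between 0.519 and 0.887. The largest P-BH over the 21 pairs was 5e-05. With the 2 pigs farthest from the median left out, r lay between 0.507 and 0.880, and within a single scan day between 0.454 and 0.942. Within a single line it lay between -0.05 and 0.963, and every pair had the lower r in the high RFI line.

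The strongest pairs joined chains of DR and DQ to each other, and SLA-DRA and SLA-DMB to CD74. SLA-DRA correlated with SLA-DQA1 (r = 0.908, rho = 0.820) and with CD74 (r = 0.907, rho = 0.887). SLA-DQA1 correlated with its partner SLA-DQB1 (r = 0.907, rho = 0.864). SLA-DMB correlated with CD74 (r = 0.891, rho = 0.871). The weakest pair was SLA-DRB1 and SLA-DMA (r = 0.593, rho = 0.568). Within the low RFI line, SLA-DRA and SLA-DQA1 reached r = 0.963, against 0.667 within the high RFI line. Within the high RFI line, r fell to -0.05 for SLA-DQB1 and SLA-DMB, where it was 0.794 within the low RFI line. It was also low there for SLA-DQA1 with SLA-DMA (0.147) and SLA-DMB (0.168). For SLA-DQB1 it was 0.185 with SLA-DRB1, 0.231 with SLA-DMA and 0.258 with CD74. Differences in r between lines were not tested. In the assembly Sscrofa11.1, SLA-DRA, SLA-DRB1, SLA-DQA1, SLA-DQB1, SLA-DMB and SLA-DMA lie in this order on chromosome 7, while CD74 lies on chromosome 2, and CD74 was thus correlated with genes on another chromosome.

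Within a gene, how closely probes tracked each other differed between genes. Over all 496 pairs of the 32 probes, a comparison chosen after the data were seen, 482 had a P-BH under 5%. Pearson's r between probes of a gene was 0.945 to 0.990 for SLA-DRA, 0.941 to 0.989 for SLA-DRB1 and 0.904 to 0.974 for CD74. It was 0.898 for the pair of SLA-DMA and 0.829 for that of SLA-DMB, and lower, 0.672 to 0.901, among the 4 probes of SLA-DQB1. For SLA-DQA1 it was 0.819 to 0.980 among 6 probes, but ranged down to -0.01 when SLA-DQA1 277, SLA-DQA1 310 and SLA-DQA1 1110 were included. The pair SLA-DQA1 503 and 528, with a single differing base, had r = 0.942 (rho = 0.860). The pair SLA-DRB1 608 and 630, without any, had r = 0.989 (rho = 0.988).

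The pair SLA-DQA1 277 and 310, with 5 differing bases, had r = 0.838 (rho = 0.799), with 0.865 within the low and 0.963 within the high RFI line. Because SLA-DQA1 310 split the high RFI pigs, r was also taken on each side of its gap, here with diet means left in. The sides were set on values already seen of a probe that was then correlated, so these P-values are descriptive only. Above the gap, r was 0.938 among 18 pigs (rho = 0.856, permutation P = 1e-05 for r, the smallest possible). Below it, r was 0.334 among 6 pigs, too few to place r closely (rho = 0.543, exact permutation P = 0.542 for r). Both probes also followed SLA-DQB1 1104, a probe of the DQ beta chain, with r = 0.927 (rho = 0.914) for SLA-DQA1 277 and r = 0.845 (rho = 0.837) for SLA-DQA1 310. In contrast, no correlation was detected between SLA-DQA1 277 and SLA-DQA1 1110 (r = -0.01, permutation P = 0.951), with r = -0.15 within the low and 0.607 within the high RFI line.

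SLA-DQA1 277 and SLA-DQA1 310 had lower correlations with genes outside the DQ pair than with SLA-DQB1 1104. This was the SLA-DQB1 probe of highest r with both. Over the 4 SLA-DQB1 probes r ran from 0.432 to 0.927 for SLA-DQA1 277 and from 0.478 to 0.845 for SLA-DQA1 310. With the SLA-DRA probes, SLA-DQA1 277 had r between 0.296 and 0.463 and SLA-DQA1 310 between 0.228 and 0.386. A P-BH of 5% was passed by 7 of 7 of these for SLA-DQA1 277 and by 6 of 7 for SLA-DQA1 310. With the SLA-DMB probes, r was 0.168 to 0.220 for SLA-DQA1 277 and -0.03 to 0.09 for SLA-DQA1 310, and 0 of these 4 correlations passed a P-BH of 5%. SLA-DQA1 1110, by comparison, had r between 0.600 and 0.732 with the SLA-DRA probes.

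**Figure D4:**
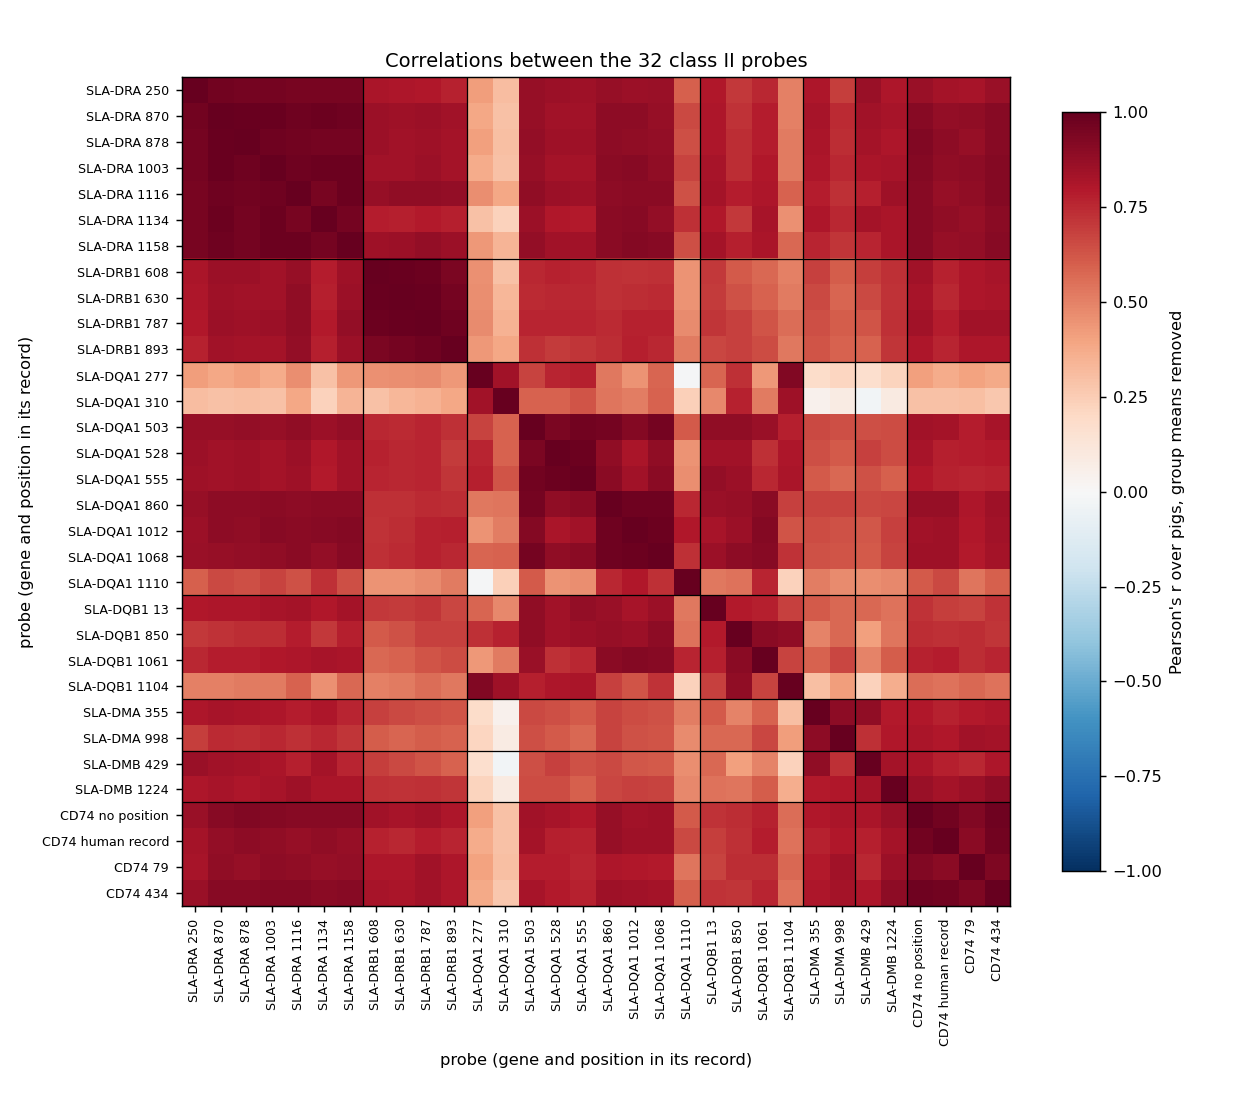
Pearson's r between each pair of the 32 class II probes over 48 pigs, with the mean of each line and diet group removed, colours from -1 (blue) to 1 (red) and black lines between genes. Blocks of SLA-DRA (0.945 to 0.990), SLA-DRB1 and CD74 are uniformly dark, while SLA-DQA1 277 and SLA-DQA1 310 are paler against the genes outside the DQ pair than against each other (0.838) and SLA-DQB1 1104 (0.927 and 0.845).

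Of the 32 probes, SLA-DQA1 277 and SLA-DQA1 310 differed most between pigs of a group. The SD within groups was 1.15 for SLA-DQA1 277 and 1.07 for SLA-DQA1 310, larger than for 98.9% and 98.5% of all probes, and the highest pig exceeded the lowest 20.4-fold and 10.9-fold. For SLA-DQB1 1104 it was 0.561, larger than for 87.4% of probes. The remaining 29 probes had an SD between 0.251 and 0.464, beside a median of 0.282 over all probes. For the brightest probe of each gene, the highest pig exceeded the lowest by 2.38-fold to 3.49-fold.

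Values of most class II probes spread more widely between low RFI pigs than between high RFI pigs. This comparison was made after the values had been seen. The SD between pigs, with the diet means removed, was larger in the low RFI line for 31 of 32 probes, beside 48.3% of all probes, and the median ratio of SD was 2.01 beside 0.989 over all probes. For SLA-DRA 1158 the SD was 0.462 in the low and 0.216 in the high RFI line, a ratio of 2.15. For SLA-DQA1 503 the ratio was 2.53. The exception was SLA-DQA1 310, with a ratio of 0.996.

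Tested with limma on absolute deviations from the group medians over all probes, 12 of the 32 probes differed in spread at P under 0.01, beside 1.4% of all probes. These were 7 probes of SLA-DQA1, 2 of SLA-DQB1, 2 of CD74 and 1 of SLA-DRA (probe 1158, P-BH = 0.710). At a P-BH of 5% there was 1, SLA-DQA1 277 (P-BH = 0.0344), beside 0.0553% of all probes. For 25 probes, low RFI pigs lay both below and above every high RFI pig, and for 0 probes was it the reverse. This was not counted over all probes. On either scan day alone 31 of 32 probes still had the larger SD in the low RFI line, beside 51.1% and 45.4% of all probes. At P under 0.01 there were 2 on the first day and 3 on the second, beside 0.951% and 0.988% of all probes. Since the probes moved together and some overlap, the 31, the 25 and the 12 are not separate observations. Some low RFI pigs lay in the same tail for all 7 genes. Ranked from the lowest of 24, a pig on LF (replicate 38) held rank 1 or 2 for every gene, while another on LF (replicate 29) held ranks between 22 and 23. Both were picked after the ranks were seen, and the other pigs ranged more widely. Replicate 33 on LF held ranks between 18 and 24, and replicate 32 on HF between 1 and 12.

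**Figure D5:**
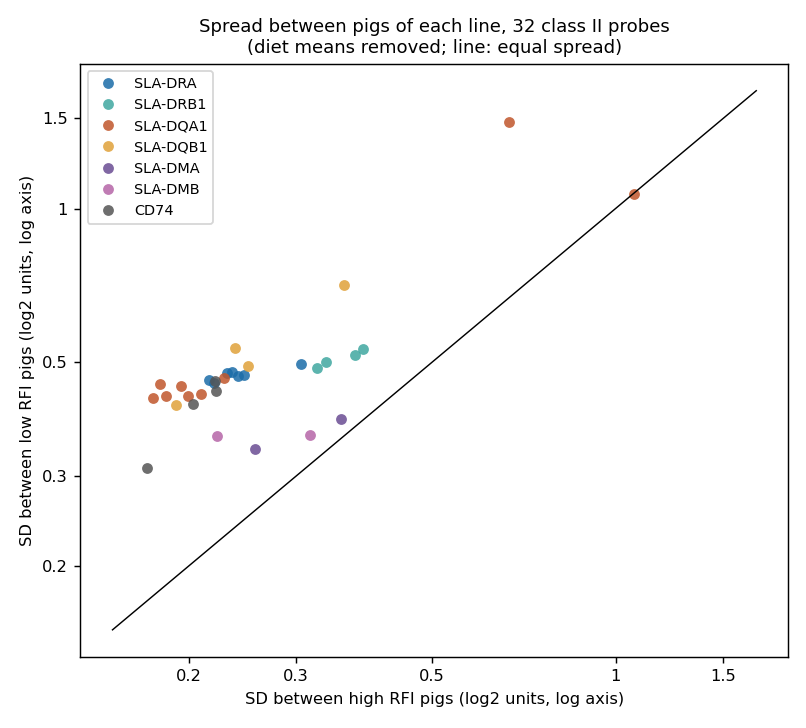
SD between pigs of the low RFI line against SD between pigs of the high RFI line for each of the 32 class II probes (log2 units, log axes, diet means removed, 24 pigs per line), with a line of equal spread. All points but SLA-DQA1 310, at a ratio of 0.996, lie above the line.

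Several genes outside the set followed the class II pattern closely. Likeness was Pearson's r over 48 pigs, group means removed, with the mean of the 7 standardised genes, and is a description over 10526 other named genes, whose r had a median of -0.06 and lay between -0.34 and 0.34 from the 5th to the 95th percentile. Probes named after other class II genes came first, namely HLA-DRA (r = 0.926), HLA-DQB1 (r = 0.867) and DRB3 (r = 0.856), and whether these read the same RNA as the set was not tested. SLAMF7, a receptor of lymphoid and myeloid cells, had r = 0.844, ITGB7, an integrin chain of lymphocytes, had r = 0.835, and ITGB2, the common chain of leukocyte integrins, had r = 0.827. GP91-PHOX, a subunit of the phagocyte oxidase, had r = 0.801, FCGR3A, an Fc receptor, had r = 0.800, and CST7, a cystatin of immune cells, had r = 0.781.

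Markers of some immune cells moved with class II expression from pig to pig. After the data were seen, SLA-DRA was compared with the mean of each of 11 marker lists, with permutation P adjusted over the 11. It correlated with the mean of the T and NK cell list (16 of 21 genes measured, r = 0.694, rho = 0.600, P-BH = 5.5e-05). The same held for Kupffer cells and macrophages (16 of 19 measured, r = 0.571, rho = 0.603, P-BH = 5.5e-05). Means of the dendritic cell list (5 of 16 measured, r = 0.518, rho = 0.367, P-BH = 0.000587) and the plasma cell list (5 of 9 measured, r = 0.491, rho = 0.490, P-BH = 0.00077) also correlated with SLA-DRA. SLA-DRA was inversely correlated with the mean of 12 hepatocyte genes (r = -0.49, rho = -0.49, P-BH = 0.00077). Its correlation did not pass with the mean of the B cell list (5 of 13 measured, r = 0.190, P-BH = 0.309) or of the sinusoidal endothelial list (10 of 14 measured, r = -0.01, P-BH = 0.935). Neither did it with the neutrophil list (7 of 10 measured, r = 0.239, rho = 0.295, P-BH = 0.186), nor with the lists of stellate cells, cholangiocytes and erythroid cells (r between -0.09 and 0.08).

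Within each line, and without the 2 pigs farthest from the median, r with T and NK cells was 0.808 (low), 0.464 (high) and 0.612. With Kupffer cells these values were 0.672, 0.433 and 0.512. With dendritic cells they were 0.695, 0.0684 and 0.420, so that this relation was weak in the high RFI line. Summed levels of Kupffer cell markers ranged from 542 to 856 times the array median in the low RFI line and from 571 to 817 in the high RFI line. Their medians were 702 and 675. Summed levels of T and NK cell markers ranged from 79.8 to 98.8 and from 81.7 to 104, with medians of 86.4 and 93.1. Those of dendritic cell markers had medians of 57.6 and 59.5. The part of these cells in the line differences and in the spread was not tested.

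Other genes of the pathway were read from lists of the other class II names, of regulators, of endosomal loading, of costimulation and of interferon gamma signalling, the cue that raises CIITA. Of 7 probes with other class II names, 0 were called for line. The nearest were the 2 probes of SLA-DOA, a chain of the inhibitor of the editor, with log2 FC of 0.26 (P = 0.0322) and 0.31 (P = 0.0149). Of 42 probes of regulators, 1 was called higher and 1 lower in the low RFI line, NFYB (a subunit of the promoter-binding factor NF-Y, 0.31, P-BH = 0.0981) and IRF1 (an interferon-induced activator, -0.34, P-BH = 0.0779), both singled out after their values were seen. This share of 4.76% was below that of all probes (6.91%). The regulatory factor X subunits, which recruit CIITA to the promoters, were not called. Their log2 FC was 0.11 for RFX5, -0.01 for RFXAP and -0.05 for RFXANK with the brightest probe.

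In endosomal loading, 4 of 57 probes were called lower and 1 higher, all 5 at a P-BH of 5%, with a median log2 FC of -0.02. This was 8.77%, near the 6.91% of all probes called for line. CTSC, a protease that activates other proteases of immune cells, was lower with both probes (log2 FC -0.30 and -0.33, P-BH = 0.0256 and 0.0265). CD63, a membrane protein of the loading compartment, was lower with 2 probes (-0.19 and -0.15, P-BH = 0.0173 and 0.0493), and CD81, a related protein, was higher with 1 (0.21, P-BH = 0.0341). CTSS, the main protease that trims CD74, LGMN, an endosomal protease, and IFI30, a reductase that unfolds antigens, were not called, with log2 FC of -0.11, -0.20 and -0.08. Of 26 costimulation probes, 4 were called lower, the 4 probes of CD40, the receptor through which T cells license presenting cells (-0.27 to -0.25, lowest P-BH = 0.0662), named after their values were seen. This was 15.4% of the list.

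Of 40 probes of interferon gamma signalling, 5 were called lower and 2 higher, with 4 at a P-BH of 5% and a median log2 FC of -0.17. This was 17.5% of the list, beside 6.91% of all probes. IFNGR1, a chain of the receptor, was lower (log2 FC -0.24, P-BH = 0.042). JAK2, its kinase, was higher with 2 probes (0.15 and 0.25, P-BH = 0.0307 and 0.00936). NLRC5, the class I counterpart of CIITA, was lower with 1 probe (-0.86, P-BH = 0.00904). IFNG, the cytokine itself, was not called, with a log2 FC of -0.16 (SE 0.16). Genes of class I presentation, the sister pathway, had 19 of 67 probes called lower and 1 higher (29.9%), with a median log2 FC of -0.18, beside -0.04 for class II. For diet, where 4.61% of all probes were called, 4 probes of regulators were called lower (9.52%) and 5 of loading higher (8.77%). Costimulation and interferon gamma signalling had 1 probe each called higher (3.85% and 2.5%), and class I presentation and the other class II names had 0 called. In these lists 0 probes passed a P-BH of 5% for diet.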

How the data were processed

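Per array, scanner output was deposited with spot intensity, local background intensity and intensity after background subtraction, not normalized between arrays. A second table, also deposited, gives log2 intensities that the authors centred on the median of each sample, made with R 2.10.0 per the submitters' processing notes. Here log2 of the background-subtracted intensity was centred on each array's median, 483 outlier spots were left out, and probes were tested (45236) if well above background in 12 or more arrays. Names came from the scanner files and from the accession table of Sscrofa11.1, which also gave the order of genes along chromosomes. A model with line, diet and their interaction was fitted with limma 3.58.1 in R 4.3.3 over all probes. The number of arrays limits the precision.

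The set and the gene lists were chosen with earlier results of these data known. By rule the text gives every gene of the set with its brightest probe by name and its other probes by name or range, genes of the pathway lists at a P-BH of 5%, 8 fixed pathway genes and the 10 genes most like the set, of which 2 are not reported here. The genes most like CIITA were not sought, because it has 0 probes. Alternatives were an ANOVA without moderation, other centring, normalization and background, other filters, slide as a block, each scan day alone, the deposited log2 table, no interaction and the mean over probes. Spread by line, correlations between all probes and across the gap of SLA-DQA1 310, and marker lists were added after the data were seen. In a simulated comparison of 24 with 24 arrays, calls were made for 94.5% of probes given an FC of 1.41 and for 0.87% of unchanged probes. The changed probes were drawn from all tested probes (median SD 0.282), so this rate need not hold for class II probes with a larger SD. Of simulated probes with an SD ratio of 2, 45% were called for spread and 0% at a P-BH of 5%.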

Additional observations from a re-analysis of the deposited data

How the results depend on the processing

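The number of class II probes called for line (2) and at a P-BH of 5% (1) fell to 1 and 0 on the first scan day alone and to 0 and 0 on the second, with 24 arrays each. Within LF, the 2 called probes became 1 with the ANOVA without moderation, the 75th percentile, quantile normalization, normexp, no background subtraction, no filter on dim probes, slide as a block and the deposited log2 table, and 0 on either scan day. The number of probes whose spread differed between lines (12) became 2 and 3 on the scan days. Across alternatives, log2 FC for line was -0.42 to -0.37 for SLA-DQA1 1110 and -1.08 to -0.65 for SLA-DQA1 310.

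Signs turned only for values that were not called. On the second scan day log2 FC for line became -0.021 for SLA-DMA and -0.19 for SLA-DQA1 277, and log2 FC for diet became -0.052 for SLA-DRA, -0.15 for SLA-DRB1, -0.061 for SLA-DQB1 and -0.062 for SLA-DMA, while the mean over probes gave -0.025 for SLA-DQB1. For CD74 log2 FC for diet became 0.0013 with the 75th percentile, 0.0022 with quantile normalization, 0.022 with normexp, 0.0025 without the filter and 0.10 on the first scan day. The cause was not tested. All 21 correlations between genes held under the 4 alternatives tried. No paired analysis was possible because the labels number the pigs singly and no number is shared between groups.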

Other observations

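Of the 10 genes most like class II over pigs, 2 were called for line, both lower in the low RFI line. Over all probes 6.91% were called for line (3.49% lower), and 10 genes are too few to set a share against this. ITGB2 had a log2 FC of -0.29 (P = 0.00427, P-BH = 0.0828 in limma) and GP91-PHOX a log2 FC of -0.32 (P-BH = 0.0167). The other 8 had a log2 FC for line between -0.19 and 0.03, and DRB3, with -0.19, was the lowest of them.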
